A study of Mus musculus with 6 samples.

Results

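Tetraspanins are small membrane proteins that cross the membrane repeatedly and gather integrins, immunoglobulin-like proteins, MHC molecules and proteases into shared patches of the cell surface. They are known in dendritic cells and macrophages for tuning adhesion, migration, cell fusion and antigen presentation, and several are standard markers of small extracellular vesicles. Here 10 tetraspanin genes, Cd9, Cd37, Cd53, Cd81, Cd82, Cd151, Tspan3, Tspan4, Tspan13 and Tspan33, were described by exact match of their symbols to the deposited table. All 10 were found among the 15282 genes listed. The table gave 1 pooled read number per gene for mature dendritic cells (maDC) and 1 for cells derived from them (diffDC).

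Both groups were wild-type C57/BL6 mouse cells, and the labels list 3 libraries for each. Bone marrow cells were grown for 6 days in GM-CSF and IL-4, given LPS for 24 hours and selected with magnetic beads against CD11c, which gave maDC. For diffDC, maDC were placed on spleen stromal cells for a further 9 days. The labels do not say how cells were separated from the stroma afterwards. Because the values are pooled, no difference below has a replicate check, and every interval is a 95% counting interval on the reads of the 2 pools.

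The pools held 69190437 reads in maDC and 89836110 in diffDC. Counts of markers follow the call rule given further on, by which 23.3% of all genes were higher and 21.0% lower. In diffDC, 10 of 11 dendritic cell markers were lower, with the MHC class II gene H2-Aa at 215861 reads in maDC and 3941 in diffDC, while Itgax, which encodes CD11c, had a log2 ratio of -0.21. Of 15 macrophage markers, 10 were higher and 3 lower, and their summed level went from 1060 to 7598. Levels here are reads per kilobase of the deposited gene length and per 1000000 TMM-scaled reads (RPKM). Of 17 stroma markers, 12 were higher and 3 lower, and their summed level went from 8.73 to 229. None of the 17 was at 0 in diffDC, and Fbln1 was at 0 in maDC. The stroma list had 20 entries, and Mfap5, Ccl19 and Ccl21a had no value here. Marker counts cover only genes with a value. The endothelial marker sum went from 37.1 to 9.04, of which Kdr made up 32.0 in maDC and 7.32 in diffDC. Of its 8 genes, 1 was higher and 6 lower. The B and plasma cell sum went from 1.05 to 0.581. The T and NK cell marker sum went from 3.16 to 0.909, of which Lck made up 2.67 in maDC and 0.135 in diffDC. Of its 6 genes, 2 were higher and 3 lower. The platelet and erythroid sum went from 72.2 to 233, of which the chemokine Pf4 made up 64.0 in maDC and 230 in diffDC. Of its 7 genes, only Pf4 was higher and 4 were lower.

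What marks the family in the coding sequence is a pair of cysteine codons (TGT or TGC) followed by a glycine codon (GGN) in the large extracellular loop. Each of the 10 genes held this run between codons 128 and 156 of its principal GENCODE M21 transcript on GRCm38, and the coding sequences encode proteins of 203 to 282 residues. The stretches are shown because they are what the 10 genes share, whichever way they moved. Capitals mark the cysteine, cysteine and glycine codons, and each stretch reads 5′ to 3′ on the coding strand.
Cd9: gcgttggacTGCTGTGGCatagctggt
Cd37: cagctgcgcTGCTGCGGCtggcaatct
Cd53: caactgcagTGTTGTGGTgtaaatggc
Cd81: acgctcaacTGTTGTGGCtccaacgca
Cd82: caggtcaagTGCTGTGGCtgggtcagc
Cd151: gagttccacTGTTGTGGCagcaacaac
Tspan3: cagttgcacTGTTGTGGAattcataac
Tspan4: gatttccgaTGCTGTGGAgtttccaat
Tspan13: aatttgaacTGCTGTGGCttccggagc
Tspan33: aagttcagcTGCTGTGGAgggatctcc
In 9 of the 10, an exon junction lay 6 bases before the first capital. Tspan13, the member with the shortest coding sequence, had its whole stretch in 1 exon.

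The family did not move as a block. The call asked for a TMM-scaled ratio of diffDC over maDC of 2-fold or more, with a counting interval that leaves out no difference. By this rule Tspan4, Cd151, Cd81 and Cd53 were higher in diffDC, and Tspan33, Tspan13, Tspan3 and Cd82 were lower. Cd9 and Cd37 were not called. Across all genes of the table, 44.3% were called, 23.3% higher and 21.0% lower, while of the genes averaging 5 CPM (reads per 1000000 of the total) or more, which all 10 members did, 37.7% were called. With the library factor behind the authors' own log2 ratios, Cd9 and Cd37 joined the higher genes, and 47.9% of all genes were called, 32.2% higher and 15.7% lower. With scaling by the summed reads Cd9 joined them, and 45.2% of all genes were called, 26.8% higher and 18.4% lower. At a limit of 1.5-fold with TMM scaling all 10 members were called, 6 higher and 4 lower, and so were 59.1% of all genes, 31.0% higher and 28.2% lower. The median log2 ratio of the 10 members was 0.81, against 0.03 over all genes. The members span from -5.35 to 4.86, so that median sits between Cd37 and Cd9 and describes neither direction. In these bulk pools, fewer cells that make a transcript and less of it per cell cannot be told apart.

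**Figure D1:**
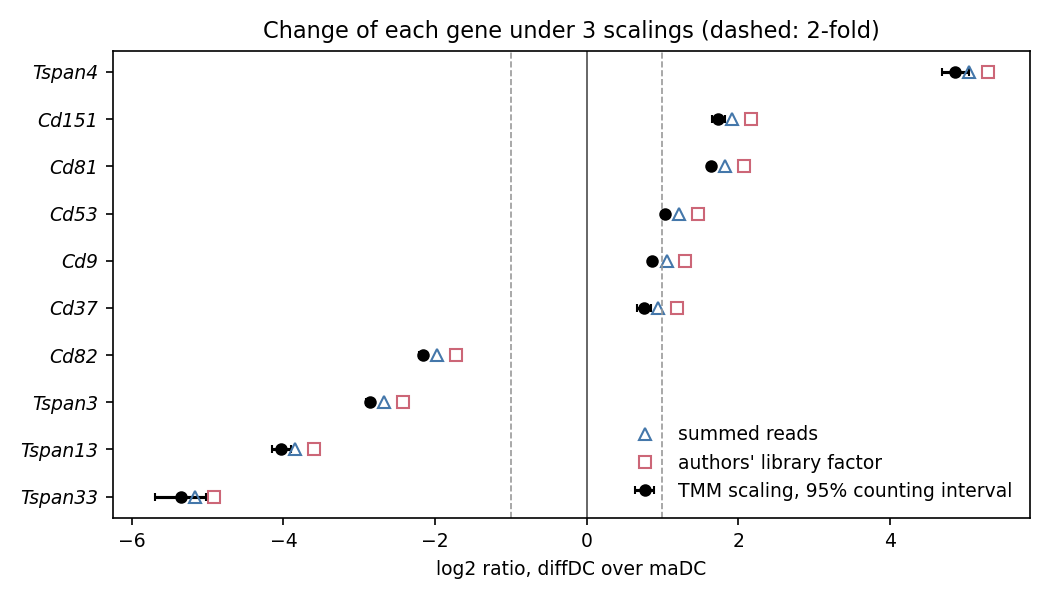
Log2 ratio of diffDC over maDC (x axis) for each of the 10 tetraspanin genes (y axis); filled points are TMM-scaled values with 95% counting intervals, triangles use the summed reads, squares the authors' library factor, and dashed lines mark 2-fold. Tspan4, Cd151, Cd81 and Cd53 lie right of the 2-fold line and Tspan33, Tspan13, Tspan3 and Cd82 left of it under each scaling drawn, while Cd9 and Cd37 cross it with the scaling.

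Tspan4 had the largest rise. It encodes the tetraspanin known for driving the formation of migrasomes, vesicles left on the retraction fibres of migrating cells. Its reads numbered 258 in maDC and 11079 in diffDC, 29.1-fold higher after scaling (log2 interval 4.68 to 5.04). It went from the lowest level of the 10 in maDC to the fourth in diffDC. The gene lies on the plus strand of chromosome 7 in GRCm38, chr7:141475240-141493427, and is annotated as protein coding. In the annotation, 292 of its 2178 exon bases overlap Chid1 on the opposite strand, and none of the sources used here says whether reads were counted by strand. Chid1 itself had 1326 reads in maDC, more than Tspan4, and 3168 in diffDC, fewer than Tspan4, with a log2 ratio of 0.69. The part of its reads in the value of Tspan4 was not tested. Noncoding genes on the opposite strand likewise overlap 218 exon bases of Cd9, 193 of Cd151 and 104 of Cd81, and the coding gene Tead2 overlaps 13 of Cd37.

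Cd151, which binds laminin-binding integrins and lies close to Tspan4 in the genome, was also higher. It had 1297 reads in maDC and 6381 in diffDC, 3.33-fold higher (log2 interval 1.65 to 1.82). Cd151 spans chr7:141467392-141471473, with 3766 bases between it and Tspan4 on the same strand. Polr2l, the RNA polymerase subunit gene that lies between them on the other strand, had 423 and 1380 reads and a log2 ratio of 1.14. Within each pool, reads of Tspan4 over reads of Cd151 went from 0.199 in maDC to 1.74 in diffDC. That ratio does not depend on scaling, and it was 8.73 times larger in diffDC (interval 7.61 to 10.01), so the neighbours did not rise by the same factor.

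Cd81 is a widely expressed tetraspanin that limits the fusion of macrophages together with Cd9. It had 7403 reads in maDC and 34019 in diffDC, 3.11-fold higher (log2 interval 1.60 to 1.67). Cd81 spans chr7:143052739-143067934 on the plus strand.

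Cd9, the close relative of Cd81 that is needed on the egg for fusion with sperm, had 7572 reads in maDC and 20426 in diffDC. Its log2 ratio of 0.87 (interval 0.83 to 0.91) stayed under 2-fold with TMM scaling, and was 1.05 when scaled by the summed reads and 1.30 with the authors' library factor, both past the limit. Cd81 and Cd9 did not move alike. Reads of Cd81 over reads of Cd9 were 0.978 in maDC and 1.67 in diffDC, 1.70 times larger (interval 1.64 to 1.77). Cd9 spans chr6:125460266-125494791 on the minus strand.

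Cd53 and Cd37 are the leukocyte tetraspanins of the set. Cd53 held the most reads of the 10 in diffDC, 61289, against 20291 in maDC. Its ratio of 2.04-fold (log2 interval 1.01 to 1.06) lay just past the limit. Cd53 spans chr3:106759921-106790149 on the minus strand. Cd37 went from 1404 reads in maDC to 3510 in diffDC. Its log2 ratio was 0.76 (interval 0.67 to 0.85), and it passed 2-fold only with the authors' library factor, at 1.19. It spans chr7:45233632-45239115 on the minus strand. Macrophage markers as a list were higher in the same pool, with a median log2 ratio of 1.81, and their part in the values of Cd53 and Cd37 was not tested.

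Among the genes that fell, Tspan33 fell furthest. It is a member of the TspanC8 group, tetraspanins that escort the protease ADAM10 to the cell surface, and in human it is known as a marker of activated B cells. It had 2067 reads in maDC and 75 in diffDC, 40.7-fold lower (log2 interval -5.70 to -5.02). Its level in diffDC, 0.392 RPKM, was the lowest of the 10. Tspan33 spans chr6:29694222-29718559 on the plus strand. B and plasma cell markers were near 0 in both pools, with 119 reads over 7 genes in maDC and 76 in diffDC.

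Tspan13 fell from 6221 to 563 reads, 16.3-fold lower (log2 interval -4.16 to -3.90). It spans chr12:36014557-36042500 on the minus strand. Tspan3, which has been linked to the self-renewal of leukaemia cells in mice, was the most abundant of the 10 in maDC by reads and by level. It fell from 23907 to 4867 reads, 7.26-fold lower (log2 interval -2.90 to -2.81), and spans chr9:56131725-56165477 on the minus strand.

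Cd82, first described in human as a suppressor of metastasis, had 12939 reads in maDC and 4274 in diffDC, 4.47-fold lower (log2 interval -2.21 to -2.11). It spans chr2:93419111-93463140 on the minus strand. In mouse dendritic cells CD82 and CD37 have been described as acting in opposite ways on migration and antigen presentation. The level of Cd82 was 7.54 times that of Cd37 in maDC, and in diffDC it was 0.996 times, with overlapping counting intervals. With the lengths of the GENCODE transcripts in place of the deposited ones, Cd82 stood lower than Cd37 in diffDC, at 24.5 against 29.9 RPKM. The change in this ratio, to 0.132 of its maDC value (interval 0.123 to 0.142), is free of scaling and of length.

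**Figure D2:**
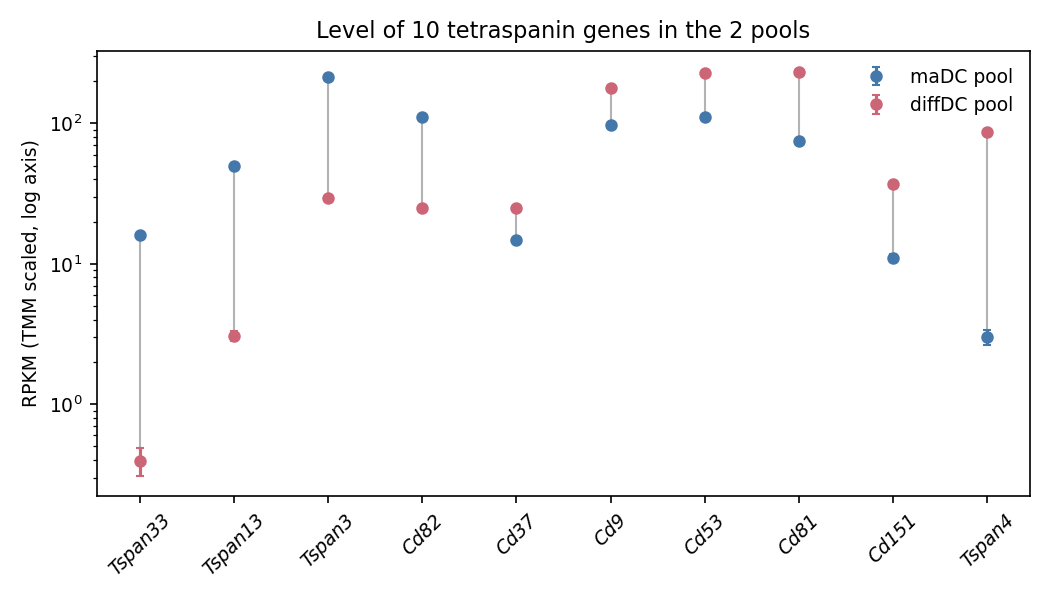
Level of each of the 10 tetraspanin genes (x axis, ordered by change) in the maDC pool (blue) and the diffDC pool (red), in RPKM on a log axis; bars are 95% exact Poisson intervals and grey lines join the pools. Tspan33 drops from 15.9 to 0.392 and Tspan4 climbs from 3.01 to 87.4. With the deposited lengths, Cd81 goes from rank 5 of the 10 in maDC to rank 1 in diffDC. Cd9 goes from rank 4 to rank 3, and Cd53 is at rank 2 in both pools.

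Levels per kilobase were used to rank the genes against each other within a pool. In maDC, Tspan3 led at 213 RPKM, followed by Cd53 at 112, Cd82 at 111, Cd9 at 97.9 and Cd81 at 75.2. Tspan13 came next at 49.9, then Tspan33 at 15.9, Cd37 at 14.8, Cd151 at 11.1 and Tspan4 at 3.01. The intervals of Cd53 and Cd82 overlapped, as did those of Tspan33 and Cd37. All other neighbours in that order were apart beyond counting error with the deposited lengths.

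In diffDC the order was led by Cd81 at 234, Cd53 at 228 and Cd9 at 179. Tspan4 followed at 87.4, Cd151 at 36.9, Tspan3 at 29.4, Cd37 at 25.01 and Cd82 at 24.9, with Tspan13 at 3.06 and Tspan33 at 0.392. With these lengths only Cd37 and Cd82 had overlapping intervals. The places of Cd53 and Cd37 depend on the length used. The deposited length was 2802 bases, while its GENCODE transcript has 1742, and with that length Cd53 came to 367 and led Cd81 in diffDC. With transcript lengths Cd37 came before Tspan3 in diffDC, at 29.9 against 29.6 RPKM, and before Tspan33 in maDC, at 17.6 against 16.0.

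The same change can be read as make-up. Tspan3 and Cd82 held 30.3% and 15.8% of the summed level of the 10 genes in maDC, and 3.46% and 2.94% in diffDC. Cd53, Cd81 and Cd9 held 15.9%, 10.7% and 13.9% in maDC and 26.9%, 27.6% and 21.1% in diffDC. Tspan4 went from 0.427% to 10.3%. By reads, with exact Clopper-Pearson intervals, Tspan3 went from 28.7% (28.4% to 29.0%) to 3.32% (3.23% to 3.42%) of the reads of the 10 genes.

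**Figure D3:**
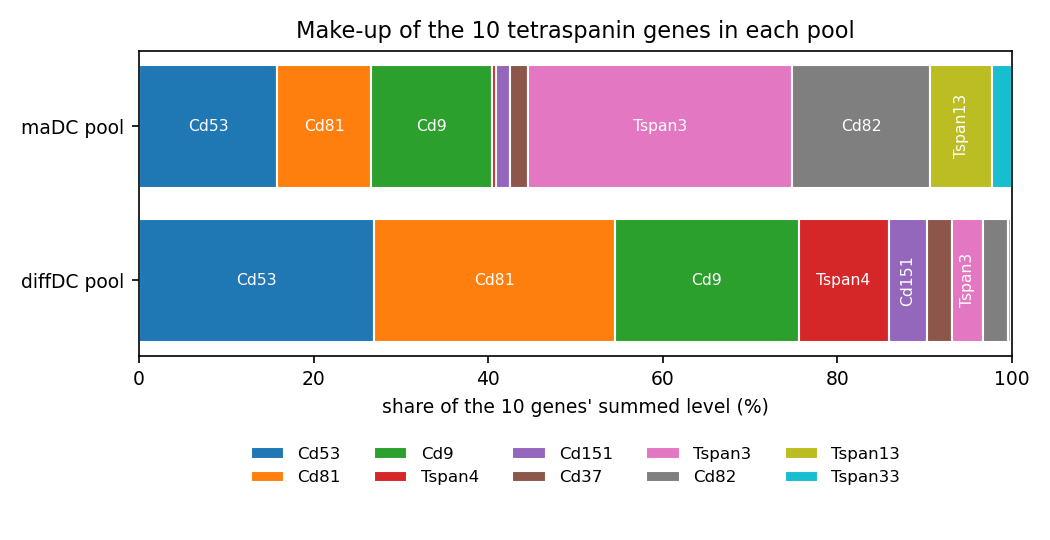
Share of the summed level of the 10 tetraspanin genes (x axis, percent) taken by each gene in the maDC pool (top bar) and the diffDC pool (bottom bar); each colour is 1 gene. Tspan3, Cd82, Tspan13 and Tspan33 shrink from 30.3%, 15.8%, 7.08% and 2.27% to 3.46%, 2.94%, 0.360% and 0.0462%, and Cd53, Cd81, Cd9 and Tspan4 take most of the diffDC bar.

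The rest of the family gave 19 further measured genes, and Tspan1 and Prph2 were not analysed here. Of the 19, 10 were higher, 5 lower and 4 not called, beside 23.3% and 21.0% of all genes. Only 7 of the 19 reached a mean of 5 CPM, of which 3 were higher and 1 lower. Cd63, the lysosomal and vesicle tetraspanin, had 10569 reads in maDC and 27549 in diffDC and a log2 ratio of 0.82, close to that of Cd9 and, like it, past 2-fold only with the summed reads (1.01) and the authors' library factor (1.25). With the deposited lengths its level of 318 RPKM was the highest of the 29 measured tetraspanins in diffDC, below the 367 that Cd53 reached with its transcript length. Reads of Cd9 over reads of Cd63 were 0.716 in maDC and 0.741 in diffDC, a ratio of 1.03 between pools (interval 0.9997 to 1.07).

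Tspan32, a tetraspanin of blood cells that lies 33094 bases from Cd81, rose 13.0-fold, from 218 to 4188 reads. Part of its reads carried decimals in the table, so reads could have been divided with other genes, and it overlaps an antisense gene over 271 exon bases. Tspan9, known from platelets, rose 2.77-fold, from 367 to 1503 reads. Tspan31, with 4732 and 6990 reads and a level of 47.3 RPKM in both pools, shares 641 exon bases with Cdk4 on the opposite strand. Upk1b and Tspan8, epithelial tetraspanins picked out after their values were seen, were listed at 0 in maDC. They had 777 and 642 reads in diffDC, at least 142-fold and 117-fold higher by the lower end of the counting interval. A floor of 3 reads for the whole group in maDC gave ratios of 175 and 144.8.

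The TspanC8 group changed its make-up. With TMM scaling, the summed level of its 6 genes was 67.9 RPKM in maDC and 73.2 in diffDC. Tspan5 held 52.5% of that sum in maDC and 14.2% in diffDC, and Tspan33 held 23.5% and 0.535%. Tspan14 held 14.4% in maDC and 72.2% in diffDC. Tspan14 rose 5.40-fold, from 1623 to 12955 reads, and Tspan5 fell 3.42-fold, from 7821 to 3383. Tspan17 had 590 and 1285 reads and was not called, at a log2 ratio of 0.56. Tspan15 (18 and 138 reads, called higher) and Tspan10 (40 and 8 reads, called lower) were scarce in both pools.

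Adam10, the protease these tetraspanins bind, rose 2.89-fold, from 3294 to 14049 reads. Adam17, a related protease outside the TspanC8 partnership, had a log2 ratio of 0.44 and was not called. Of the 33 measured genes in the list of tetraspanin partners, 11 were higher and 14 lower, beside 23.3% and 21.0% of all genes. The balance turned with the scaling, to 12 higher and 12 lower with the summed reads and 13 higher and 11 lower with the authors' library factor. Their median log2 ratio was -0.15, against 0.03 over all genes.

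The direct partners of Cd9 and Cd81 in the immunoglobulin family went opposite ways. Igsf8, also called EWI-2, fell 3.76-fold, from 16413 to 6453 reads, while Ptgfrn, also called EWI-F, rose from 238 to 2812 reads (log2 interval 2.81 to 3.20). Reads of Ptgfrn over reads of Igsf8 were 0.0145 in maDC and 0.436 in diffDC, 30.1 times larger (interval 26.2 to 34.4). Per length, Igsf8 still stood 5.82 times above Ptgfrn in diffDC.

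Integrins that tetraspanins hold in place also differed from one another. The laminin-binding subunit Itga6, a partner of Cd151, rose 5.77-fold, from 5195 to 44290 reads, and Itgam, which encodes CD11b, rose 6.78-fold. The fibronectin-binding subunit Itga5 fell 3.59-fold. Itgb1, the beta subunit that pairs with Itga6 and Itga5, had a log2 ratio of 0.10 and was not called. The adhesion receptor Cd44 rose 3.96-fold. Ifitm1, an interferon-induced membrane protein known to associate with Cd81, fell 47.8-fold, from 16459 to 509 reads, and the matrix protease Mmp14 fell 6.13-fold. Values of Itga6, Itga5, Itgb1, Cd44, Ifitm1 and Mmp14 carried decimals before rounding, so their reads could have been divided with other genes.

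**Figure D4:**
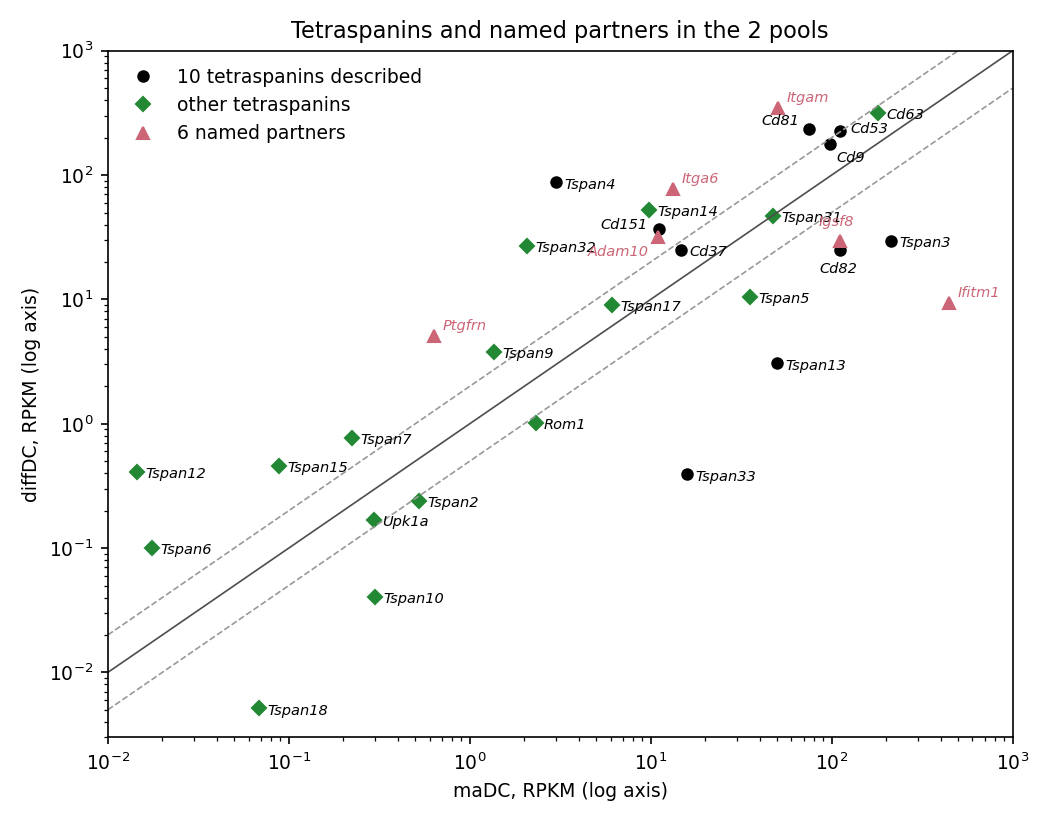
Level in the maDC pool (x axis) against the diffDC pool (y axis), both in RPKM on log axes, for the 10 tetraspanins (black), the other tetraspanins with reads in maDC (green) and 6 named partners (red); the solid line marks equal levels and dashed lines 2-fold. Tspan4, Tspan32, Tspan14 and Ptgfrn lie well above the lines, Tspan33, Tspan13 and Ifitm1 well below, and Tspan31 lies on the line of equal levels at 47.3 in both pools. Tspan8, Tspan11 and Upk1b, listed at 0 in maDC, are not drawn.

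Of 21 genes of vesicle formation and release, 4 were higher, 5 lower and 12 not called, with a median log2 ratio of 0.03, and the share called was near the 44.3% of all genes. With the authors' library factor 6 were higher and 3 lower, and with the summed reads 4 and 3. Sdcbp, which encodes syntenin, the adaptor that links syndecans and Cd63 to vesicle budding, went from 48643 to 124074 reads, a log2 ratio of 0.79 that passed 2-fold only with the authors' library factor, at 1.22. Among the syndecans, Sdc4 rose 2.27-fold and Sdc1 fell 4.72-fold. Pld2, a phospholipase of the same route, rose 2.53-fold. Rab27a and Chmp4b were 2.23-fold and 2.18-fold lower, calls that were lost with the summed reads and with the authors' library factor. Below a mean of 5 CPM, Rab27b (77 to 603 reads) and Smpd3 (8 to 651) were called higher. Sytl4 (32 to 3) and Exph5 (64 to 5), also below it, were called lower.

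Stroma markers were higher in the same pool as Tspan4, Cd151, Cd81, Ptgfrn and Itga6. Col3a1 had 26 reads in maDC and 26756 in diffDC, and Dcn 102 and 13143. The fibroblast markers Thy1 and Fap went the other way, from 21 to 3 reads and from 107 to 13. Of the 17 stroma markers, 12 were higher and 3 lower. Of these tetraspanins, Tspan4, Cd151 and Cd81 are made by fibroblasts as well as by myeloid cells. The part of stromal RNA in their values was not tested. Nor was it tested for Cd9, Cd63, Upk1b, Tspan8 or any other gene named here.

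The sequence upstream of the genes was compared in RefSeq promoter windows on GRCm38.p6, of which only the 250 bases before each start were used. All 10 members matched, with 15 starts in all, and Cd82, Cd151 and Tspan4 had more than 1 start each, so the windows are not separate genes. Some windows overlap annotated exons, as in Cd37 (165 bases) and a window of Cd151 (250 bases of Gm10575). Neither window printed below does. A pair of members is shown, Cd53 because it held the most reads of the 10 in diffDC and Tspan33 because it fell furthest. The capitals mark GAGGAA, the core read by the myeloid factor PU.1, in Cd53, and the GC box GGGCGG in Tspan33, each searched on both strands.
Cd53, chr3:106790150-106790399, minus strand: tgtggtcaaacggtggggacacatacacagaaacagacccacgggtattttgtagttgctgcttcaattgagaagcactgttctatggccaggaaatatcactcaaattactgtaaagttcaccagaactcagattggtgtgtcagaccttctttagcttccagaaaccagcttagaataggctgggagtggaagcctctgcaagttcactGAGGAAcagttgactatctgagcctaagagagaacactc
Tspan33, chr6:29693964-29694213, plus strand: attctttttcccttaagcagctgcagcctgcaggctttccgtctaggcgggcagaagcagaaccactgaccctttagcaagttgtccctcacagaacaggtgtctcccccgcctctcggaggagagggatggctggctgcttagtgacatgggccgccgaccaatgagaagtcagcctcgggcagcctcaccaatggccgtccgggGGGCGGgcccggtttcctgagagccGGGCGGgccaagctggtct
The Cd53 window held 2 CG dinucleotides and the Tspan33 window 13, against a median of 6 over all 32851 windows. GAGGAA was present in 3 of the 15 member windows, those of Cd37, Cd53 and 1 of Cd82, and in 23.3% of all windows. GGGCGG was present in 9 of the 15 member windows and in 32.7% of all windows, and it was found among genes that rose (Tspan4, Cd81, Cd151) and genes that fell (Tspan33, Tspan13, Cd82). The AP-1 site TGANTCA, in 6.75% of all windows, and the TATA box TATAAA, in 12.4%, were in none of the 15. The other motifs searched were the NF-kappaB site, the CCAAT box and the E-box. They were in 9, 5 and 2 of the 15, and in 45.8%, 33.8% and 6.02% of all windows. These are matches of letters in a short window and carry no statement on binding.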

How the data were processed

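RNA sequencing of 3 maDC and 3 diffDC libraries was described, and the table used here holds 1 pooled value per gene and group. Per the file headers, the deposited columns are read numbers, a gene length, a log2 ratio of the groups, p-values and q-values. The deposited read numbers were taken for expected counts, since only 58.2% of maDC and 57.5% of diffDC values were whole within 0.005, and were rounded to whole numbers. All 10 members had whole numbers in both pools. Per the submitters' processing notes the builds were GRCm38.p4 and mm10. The aligner, the counter and the way libraries were pooled are not given in the sources used here. The authors' p-values were not used, and their log2 ratios served to derive their library factor. Of the file, 1 line had been emptied for this work.

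TMM factors came from edgeR 4.0.16 in R 4.3.3 over all genes, a log2 library ratio of 0.56 for diffDC over maDC. Ratios carry exact Clopper-Pearson 95% intervals, which cover counting error only. PCR copies and differences between cultures are outside them, and no test across libraries was possible. Intervals of within-pool ratios came from the variance of log counts. A value of 0.5 replaced 0 reads. Levels are reads per kilobase of deposited length per 1000000 scaled reads. The calling step was tested on simulated pools with counting noise only, so that test does not cover PCR copies or differences between cultures. The rest used Python 3.11.15 with scipy 1.17.1, numpy 2.4.6, pandas 2.3.3 and matplotlib 3.10.9. Positions and transcripts came from GENCODE M21 on GRCm38.

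The members and lists were chosen with earlier results of these data known. Genes named beyond the 10 members were, in each list, the 4 largest rises and 4 largest falls among called genes averaging 5 CPM or more, all TspanC8 genes, Adam10, Igsf8, Ptgfrn and Cd63. Others are named as context and were chosen after their values were seen. Alternatives were scaling by summed reads, by the median ratio and by the authors' factor, a limit of 5 CPM, a size limit of 1.5-fold, 1 in place of 0 reads and, added after seeing the data, transcript lengths from GENCODE.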

Additional observations from a re-analysis of the deposited data

How the results depend on the processing

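No value of the 10 members changed direction under any of the scalings tried, which were TMM, the summed reads, the median ratio and the authors' library factor. Against TMM these shifted every log2 ratio by 0.19, -0.02 and 0.44. The median log2 ratio over genes of at least 5 CPM was 0.06 with TMM and 0.49 with the authors' factor. The calls of Tspan4, Cd151, Cd81, Cd53, Tspan33, Tspan13, Tspan3 and Cd82 held under each scaling. Cd9 passed 2-fold with the summed reads, and Cd9 and Cd37 with the authors' factor, so that 6 members were higher and 4 lower. The median over the members was then 1.0001 with the summed reads and 1.25 with the authors' factor. At a size limit of 1.5-fold all 10 members were called, 6 higher and 4 lower, as were 59.1% of all genes. The number of other tetraspanins called lower dropped from 5 to 3, and of vesicle genes called lower from 5 to 3, with the summed reads and with the authors' factor alike, while vesicle genes called higher went from 4 to 6 with the authors' factor. With genes of at least 5 CPM only, 3750 of 9957 genes were called (37.7%), 2073 higher (20.8%) and 1677 lower (16.8%). The 7 other tetraspanins at that level then gave 4 calls, 3 higher and 1 lower. The 17 vesicle genes gave 5 calls, 2 higher and 3 lower. With transcript lengths from GENCODE, the level of Cd53 was 367 in diffDC and 180 in maDC, the cause being the longer deposited length, and Cd37 passed Tspan3 in diffDC and Tspan33 in maDC. No paired analysis was possible because the table holds 1 pooled value per group, and for the same reason leaving out a replicate could not be run. Depth limited the rare genes: Tspan33 rests on 75 reads in diffDC and Tspan4 on 258 in maDC.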
